A study of Lathyrus oleraceus with 9 samples.

Results

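Pea seeds aged for 12 d were compared with non-aged seeds on 3 of the 9 arrays of the series, chosen by their titles, which give the middle of 3 ageing times. The seeds were of Pisum sativum L. cv Alaska Early. Aged seeds had been held at 60% relative humidity to a moisture content of 12% and then kept in sealed bottles at 50°C for 8, 12 or 15 d. Non-aged seeds, brought to the same moisture content but not heated, were the control of every array. Each replicate was a powder ground from 20 seeds, so that the spread between replicates is between pools and not between single seeds. Both RNAs of a replicate, in a dye each, shared an array of 70-mer pea probes, which gave 1 log2 ratio per probe, with aged seeds over non-aged seeds. The dyes were exchanged on replicate 2. Heating is a stand-in for slow storage, and the seeds were frozen without imbibition.

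A dry pea seed is mostly cotyledon, packed with storage globulins of the legumin and vicilin families, and its cells have survived drying with the help of late embryogenesis abundant proteins, small heat shock proteins and oil body proteins. Its stored messenger RNAs were made during maturation and are used in the first hours of imbibition, when ribosomes, elongation factors and respiration are needed. Metabolic activity is minimal in the dry state, although the study cites reports of transcription in dry seeds. Damage to membranes, enzymes and nucleic acids builds up over storage.

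All 5246 probes had a value on each of the 3 arrays of 12 d. The array medians were between 0.01 and 0.02, Pearson's r between 2 of the arrays, taken across probes, ranged from 0.9755 to 0.976, and the median SD of a probe over the 3 arrays was 0.066 on the log2 scale. The ratios are centred and come from 1 µg of total RNA per sample, so that each is relative to the other probes. A fall in all transcripts together would not be seen. The study reports that RNA was already degrading at its earliest ageing time, with a falling RNA integrity number. It judged the RNA used on the arrays to be of satisfactory quality, and amplified it before labelling. It proposes that loss of stored messenger RNA by degradation may add to the falls, without accounting for all changes. How far RNA integrity shaped a ratio, or the sign of a probe, was not tested. A ratio holds no level, so that the seed markers of the lists below show relative change only, and a loss of cells of a type and a loss of RNA per cell cannot be told apart. Means below are log2 ratios of 12 d aged over non-aged seeds, with the SD over 3 arrays where it is given (n = 3), and adjusted p-values are limma's, with the Benjamini-Hochberg adjustment made over the whole array.

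At 12 d, 164 probes were up-regulated and 250 were down-regulated, which took an adjusted p under 0.05 together with a mean of 1 or above or of -1 or below, a 2-fold change. These were 3.13% and 4.77% of all probes, and 7.89% for both directions together. Every called probe had the same sign on its 3 arrays, and 131 of the 164 up-regulated and 216 of the 250 down-regulated probes were past 1 in size on each array. The down-regulated side reached farther, with a median of -1.29 and 17 probes at -2 or below, whereas the up-regulated probes had a median of 1.17 and 2 of them lay at 2 or above. Most probes moved little: 3660 of the 5246 had a mean under 0.5 in size, and the median over all probes was 0.01. The fold-change threshold set the size of these counts, since 1948 probes (37.1%) were higher and 1790 (34.1%) were lower at 12 d by the test alone, and the smallest mean that passed was 0.083 in size. Against a log2 ratio of 1 itself, tested with limma's treat, 89 up-regulated and 179 down-regulated probes passed.

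**Figure D1:**
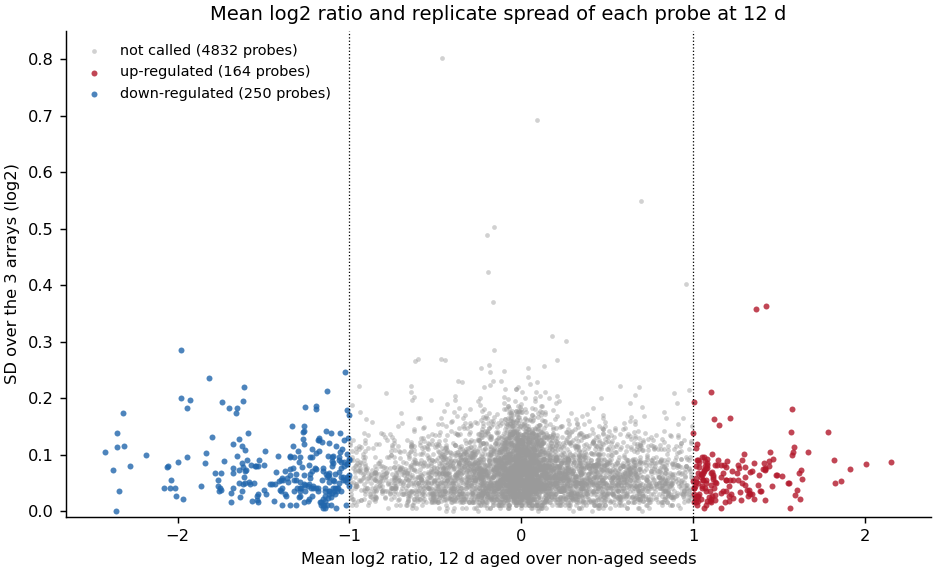
Mean log2 ratio of 12 d aged over non-aged seeds (x axis) and SD over the 3 arrays (y axis, log2) for each of the 5246 probes. The 164 up-regulated probes (red) and 250 down-regulated probes (blue) lie beyond the dotted lines at 1 and -1, most with an SD under 0.2, and the widest spread, an SD of 0.803, is that of a probe not called.

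Replicates differed little beside changes of this size. An SD over 0.2 was found for 63 probes, of which 9 were called, and each of the 3 arrays was the farthest from the mean in 21 of the 63. The widest spread of a called up-regulated probe with a product name was that of a legumin J precursor (PSOLI04996), which was singled out after its values were seen. It had log2 ratios of 1.69, 0.98 and 1.42 on replicates 1, 2 and 3, so that 1 array fell just under the fold-change threshold.

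The most strongly up-regulated probe carried no known function. It was a predicted hypothetical protein (PSOLI01670) with log2 ratios of 2.13, 2.25 and 2.08, a mean of 2.15 or 4.45-fold (adjusted p = 3.9e-15). The highest probe with a product name was Patellin-5 (PSOLI02696), of a family of lipid-binding proteins that act in membrane traffic, with 2.10, 1.95 and 1.96 and a mean of 2.00 (adjusted p = 9e-16). TIM50 (PSOLI01371), a receptor subunit of the mitochondrial inner membrane translocase that takes in proteins from the cytosol, followed with 1.91, 1.84 and 1.99 and a mean of 1.91 (adjusted p = 3.7e-15). In each of the 3 the lowest array was above 1.8.

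Next came a chloroplast 30S ribosomal protein S18 (PSOLI00265) at 1.82 ± 0.049 and 2 storage globulins. Legumin J precursor (PSOLI04998) had log2 ratios of 1.82, 1.73 and 1.91, and provicilin precursor type B (PSOLI04635) of 1.63, 1.83 and 1.90, with adjusted p-values of 4.7e-15 and 1.3e-14. A universal stress protein (PSOLI04490) reached 1.61 ± 0.038, cytosolic fructose-bisphosphate aldolase (PSOLI04974), a glycolytic enzyme, 1.58 ± 0.10, and ferritin-3 (PSOLI03272), the plastid iron store, 1.58 ± 0.10. The iron store and the aldolase were thus up about 3-fold, at 2.98-fold and 2.99-fold. Legumin K (PSOLI04995) was more spread, with 1.37, 1.65 and 1.71, and a helicase domain-containing protein (PSOLI02672) was the most even of the group, with 1.56, 1.57 and 1.56. Other probes among the 10 highest were 3 more hypothetical proteins, between 1.63 and 1.86, and 1 probe of the set named PCPS (PCPS17) at 1.67 ± 0.10, for which no product name was given.

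On the other side, the 10 lowest probes all carried product names, and most serve protein synthesis, protein folding or amino acid synthesis. Threonine synthase (PSOLI00565), the last enzyme of threonine synthesis, was the lowest of all, with log2 ratios of -2.41, -2.32 and -2.53 and a mean of -2.42, which is 5.35-fold lower in 12 d aged seeds (adjusted p = 6.1e-16). Elongation factor 1-alpha (PSOLI01474), which brings aminoacyl-tRNA to the ribosome, had -2.33, -2.34 and -2.46 (adjusted p = 6.1e-16). T-complex protein 1 subunit epsilon (PSOLI00562), part of the cytosolic chaperonin that folds actin and tubulin, had the same value, -2.36, on all 3 arrays.

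Elongation factor 2, which moves the ribosome along the message, was down-regulated on 2 of these probes, to -2.35 ± 0.11 (PSOLI04762) and -2.35 ± 0.14 (PSOLI03982). Phosphoenolpyruvate carboxylase (PSOLI04052), which refills the citrate cycle with oxaloacetate, was at -2.34 ± 0.035, and a 70 kDa heat shock protein (PSOLI04905) at -2.32 ± 0.17. A pair of amino acid enzymes was close to them. The large subunit of 3-isopropylmalate dehydratase (PSOLI00330), of leucine synthesis, had a mean of -2.31 ± 0.12, and S-adenosylmethionine synthetase 1 (PSOLI00486), which makes the main methyl donor of the cell, of -2.28 ± 0.080. A probable NADP-dependent oxidoreductase P1 (PSOLI00684) closed the 10 at -2.19 ± 0.10. No array of any of these 10 probes lay above -2.1, and the adjusted p-values were between 6.1e-16 and 4.5e-14.

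**Figure D2:**
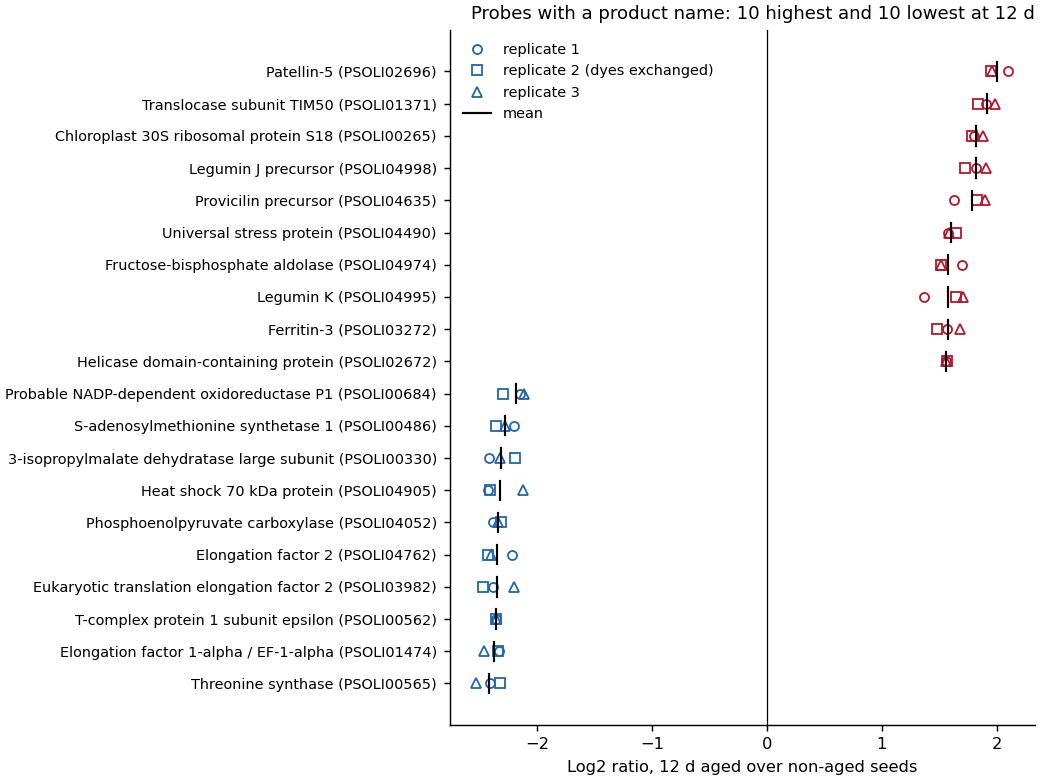
Log2 ratio of 12 d aged over non-aged seeds (x axis) on each array for the 10 highest and 10 lowest called probes that have an informative product name (y axis), with replicates as symbols and their mean as a bar. The 10 lowest lie between -2.19 and -2.42, farther from 0 than the highest, Patellin-5 at 2.00.

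Product names were given by the study for 717 probes, because they had changed on these same arrays at one or more ageing times, so that the lists that follow cannot stand as independent evidence of direction. For the same reason a called share far above the 3.13% and 4.77% of all probes is built into each of them. Over all 717, 161 were up-regulated, 244 were down-regulated and 312 were not called at 12 d. Of the 312, 309 passed the test with a smaller change. The median over the 717 was -0.81, and over the 491 with an informative name it was -0.93, with 78 up-regulated and 207 down-regulated. A list median near these values is that of listed probes in general. Within each list up to 2 of the highest up-regulated and 2 of the lowest down-regulated probes are named by a fixed rule, and the other members named here were chosen after their values were seen.

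More probes of protein synthesis fell than rose. Of 57 probes for cytosolic ribosomal proteins, 22 fell, 3 rose and 32 were not called. Their median was -0.95, beside -0.93 over the 491 probes with an informative name. The lowest were 60S ribosomal protein L22-2 (PSOLI04765) with -1.56, -1.73 and -1.53 and 40S ribosomal protein S15a-1 (PSOLI04201) with -1.63, -1.53 and -1.60. The 3 that rose were 40S S25-2 (PSOLI03181) at 1.28 ± 0.091, 60S L28-1 (PSOLI03094) at 1.06 ± 0.056 and 60S L15-2 (PSOLI01752) at 1.01 ± 0.19. Among 22 elongation, initiation and release factors 10 fell and 2 rose, with a median of -0.95. The 2 that rose were another probe for elongation factor 2 (PSOLI04147), with 1.33, 1.36 and 1.37, and elongation factor P (PSOLI04550) at 1.05 ± 0.042. Elongation factor 2 thus had a probe at 1.35 and 2 at -2.35. The 2 at -2.35 were matched to the same database entry, which the probe at 1.35 was not. Of 6 probes for plastid and other ribosomal proteins, S18 rose, as above, and chloroplast 30S S13 (PSOLI00824) fell to -1.07 ± 0.042, whereas the other 4 were between -0.94 and -0.77.

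Chaperones were divided. Of 17 probes for heat shock proteins, chaperonin subunits, Clp ATPases and prolyl isomerases, 8 fell, 4 rose and 5 were not called, with a median of -0.95. Those that fell included the 70 kDa heat shock protein and subunit epsilon above, HSP81-3 of the HSP90 family (PSOLI00619) at -1.87 ± 0.045 and a class II small heat shock protein (PSOLI02110) at -1.19 ± 0.040. Chaperonin subunit zeta (PSOLI03645) ran the other way from subunit epsilon, with 1.54, 1.49 and 1.36 (adjusted p = 6e-14), although both belong to one ring complex. A DnaJ protein (PSOLI01063), a co-chaperone of HSP70, rose to 1.11 ± 0.015. In the endoplasmic reticulum, the HSP70 homologue BiP2 (PSOLI03407) rose to 1.06 ± 0.055 and Bax inhibitor 1 (PSOLI01240), a suppressor of cell death in that membrane, to 1.01 ± 0.040. Of 2 probes for Derlin-2.2, which serves the export of misfolded proteins for degradation, neither was called. They had 0.97 ± 0.025 (PSOLI02741) and -0.92 ± 0.060 (PSOLI00092), with opposite signs. With each array centred on its median, Bax inhibitor 1 was at 0.99 and no longer reached the fold-change threshold.

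Protein degradation was divided too. Of 9 proteasome probes, 2 rose and 2 fell. Beta type 3 of the core particle (PSOLI02926) had 1.13 ± 0.029 and non-ATPase subunit 3 of the lid (PSOLI04626) 1.11 ± 0.069, against non-ATPase subunit 14 (PSOLI02248), the lid's deubiquitinase, at -1.54 ± 0.020 and the ATPase RPT6a (PSOLI04296) at -1.24 ± 0.044. Of 22 probes of the ubiquitin system, 5 rose and 7 fell, with a median of -0.86. Ubiquitin-specific protease 26 (PSOLI01195), which removes ubiquitin from histone H2B in Arabidopsis, was the highest, with 1.39, 1.5 and 1.36, followed by the Tubby-like F-box protein 7 (PSOLI02431) at 1.21 ± 0.026. F-box/LRR-repeat protein 5 (PSOLI00977) was the lowest, with -1.96, -1.99 and -1.95, and SKP1-like protein 1B (PSOLI03935), which links F-box proteins to cullin in ubiquitin ligases, was at -1.27 ± 0.015. Among 8 other proteases, an FtsH protease (PSOLI01794) rose to 1.23 ± 0.023 and a sentrin-specific protease (PSOLI03067) to 1.06 ± 0.070, whereas an aspartyl protease (PSOLI00499) fell to -1.23 ± 0.096 and cathepsin H (PSOLI03855) to -1.12 ± 0.067.

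More seed storage probes rose than fell. Of 10 probes, 4 rose, 1 fell and 5 were not called, with a median of 0.87. The 4 were 2 legumin J probes, legumin K and the type B provicilin, given above. The type A provicilin (PSOLI02231) fell, with -1.27, -1.29 and -1.32 (adjusted p = 1.6e-14), and a second type A probe (PSOLI02195) had a mean of -0.89 ± 0.067, so that the 2 vicilin types lay on opposite sides of 0. Of 11 probes for oil body, late embryogenesis and desiccation proteins, 4 rose, 3 fell and 4 were not called. The dehydration-responsive protein RD22 (PSOLI04742), known from drought in Arabidopsis, had 1.01, 1.31 and 1.05, and the small hydrophobic membrane protein RCI2B (PSOLI04494), known there from cold, 1.16, 1.05 and 1.13. A second RD22 probe (PSOLI04811) was at 0.88 ± 0.047 and not called. Falling members were sucrose-binding protein (PSOLI00636), a vicilin-like protein, with -1.66, -1.59 and -1.62, the embryonic abundant protein USP92 (PSOLI01459) at -1.39 ± 0.059 and the P24 oleosin (PSOLI04150), an oil body coat protein, at -1.04 ± 0.11.

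Of 10 antioxidant and thiol redox probes, 5 fell, 1 rose and 4 were not called, with a median of -0.96. Monodehydroascorbate reductase (PSOLI00933), which regenerates ascorbate, had -1.3, -1.43 and -1.3, and glutathione peroxidase (PSOLI04501), which reduces lipid peroxides, -1.26, -1.31 and -1.41. An H-type thioredoxin (PSOLI04247) was the one that rose, to 1.01 ± 0.025. Superoxide dismutase of the mitochondrion (PSOLI04797), which was singled out after its values were seen, had a mean of -0.90 ± 0.040 and was not called. Both ferritin-3 probes had positive means, 1.58 called and 0.91 (PSOLI00243) not called. Of 4 probes for alcohol and formaldehyde dehydrogenases 2 rose. These were an alcohol dehydrogenase (PSOLI03230) at 1.3 ± 0.061 and glutathione-dependent formaldehyde dehydrogenase (PSOLI05210), which detoxifies formaldehyde, at 1.07 ± 0.035. All 4 probes were matched to the same database entry, and whether they read the same transcript was not tested.

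Glycolysis was divided, with 6 of 12 probes rising, 4 falling and 2 not called, and a median of 0.68. Steps that rose were fructose-bisphosphate aldolase, given above, phosphoglycerate kinase (PSOLI04847) with 1.07, 1.06 and 1.33, and hexokinase (PSOLI01657), the first step, which lay just past the threshold with 0.92, 1.16 and 0.92. Phosphoglycerate mutase was among the steps that fell, on 2 probes with -2.11, -1.96 and -1.72 (PSOLI03795) and -1.55, -1.56 and -1.51 (PSOLI00569). Another probe named for this enzyme (PSOLI03095) was up-regulated at 1.13 ± 0.020, and aldolase likewise had a probe that fell (PSOLI04449), to -1.39 ± 0.012. So 2 of the enzyme names had probes called in both directions. The 12 probes were matched to 12 distinct database entries, and whether probes of one name read the same gene was not tested.

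Of 6 probes of sucrose, galactinol and trehalose metabolism 5 fell and sucrose synthase (PSOLI04390), which opens sucrose for use, rose to 1.28 ± 0.020. The median of -1.33 was the lowest of the 26 lists. UDP-glucose 4-epimerase (PSOLI00615), which interconverts UDP-glucose and UDP-galactose, had -1.66, -1.62 and -1.75, and a trehalose-phosphate enzyme of glycosyl transferase family 20 (PSOLI00835) -1.59, -1.64 and -1.69. Galactinol synthase (PSOLI04962), the entry to the raffinose sugars that protect dry seeds, was at -1.46 ± 0.047.

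Of 15 probes of mitochondrial respiration 7 fell, 2 rose and 6 were not called, with a median of -0.85. Over the 491 probes with an informative name 207 fell and 78 rose, with a median of -0.93. The list thus lay near the listed probes in general. Cytochrome c-1 (PSOLI00737) had -1.84, -1.71 and -1.80, and the ADP/ATP carrier (PSOLI00646), which exports ATP from the mitochondrion, -1.77, -1.71 and -1.82. The 2 that rose were an aconitase named as cytoplasmic (PSOLI03775), which interconverts citrate and isocitrate, at 1.07 ± 0.012 and dihydrolipoyl dehydrogenase (PSOLI03519), a subunit that the pyruvate and oxoglutarate dehydrogenases share, at 1.02 ± 0.015.

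The methionine cycle had 7 of 9 probes falling and none called up, with a median of -1.29. Beside S-adenosylmethionine synthetase 1, spermidine synthase 1 (PSOLI02518), which makes a polyamine from its product, had -1.71, -1.79 and -1.76. The 2 members with positive means were a second probe for homocysteine methyltransferase (PSOLI04228) at 0.95 ± 0.062 and methylenetetrahydrofolate reductase 2 (PSOLI04600) at 0.88 ± 0.061, neither called. Of 10 probes for other amino acid enzymes, 3 fell, glutamine synthetase (PSOLI00518) at -1.68 ± 0.12 with the 2 given above, and ketol-acid reductoisomerase (PSOLI02505), of branched-chain synthesis, rose to 1.00 ± 0.040. The last lay within 0.01 of the threshold and was at 0.99 with the arrays centred on their medians.

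The cytoskeleton fell in most of its members. Of 14 probes for actin, tubulin and their binding proteins, 10 fell, 2 rose and 2 were not called, with a median of -1.10. A pair of beta-1 tubulin probes had -2.17, -1.77 and -2.00 (PSOLI01512) and -1.61, -1.64 and -1.66 (PSOLI02637). Actin-3 (PSOLI04421) rose to 1.08 ± 0.050 and alpha tubulin (PSOLI03966) to 1.03 ± 0.090, whereas Actin-7 (PSOLI04417) fell to -1.61 ± 0.070. Small GTPases and vesicle traffic, with the Rab and ARF switches that direct membrane transport, had 12 of 18 probes falling and none called up (median -1.09). Rab GDP dissociation inhibitor (PSOLI00760), which recycles Rab proteins, had -1.68, -1.58 and -1.54, and coatomer subunit epsilon (PSOLI01936), of the coat of Golgi vesicles, -1.47, -1.62 and -1.5.

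Among 12 probes for histones and histone deacetylases 4 fell and 1 rose. The plant-specific nucleolar deacetylase HD2 (PSOLI01229) had -1.97, -2.06 and -2.13 and a histone H3 probe (PSOLI04463) -1.47, -1.48 and -1.54, against histone H2B.3 (PSOLI00999) at 1.04 ± 0.031. Of 13 transcription factor probes 9 fell and 1 rose, with a median of -1.14. NAC domain protein 78 (PSOLI00679) was at -1.76 ± 0.045 and a MYB factor (PSOLI00544) at -1.73 ± 0.089, whereas the homeobox factor KNAT3 (PSOLI02259) rose to 1.26 ± 0.055. Calcium signalling and 14-3-3 proteins had 3 of 8 probes falling and 1 rising. Calmodulin-7 (PSOLI04258), the calcium sensor, had -1.25, -1.25 and -1.22 and 14-3-3-like protein A (PSOLI04215), which binds phosphorylated proteins, -1.23 ± 0.066, against an annexin (PSOLI02931) at 1.04 ± 0.021.

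In hormone synthesis, 12-oxophytodienoate reductase OPR1 (PSOLI04604) rose, with 1.41, 1.33 and 1.5, while reductase 2 (PSOLI04233) fell to -1.09 ± 0.031 and a lipoxygenase (PSOLI00996), which makes the hydroperoxides that jasmonate synthesis starts from, to -1.01 ± 0.13. Of 5 patellin and universal stress probes, 2 rose, given above, and 2 fell. These were a second universal stress protein (PSOLI04288) at -1.32 ± 0.036 and Patellin-3 (PSOLI03735), which lay on the threshold with -0.90, -1.08 and -1.03.

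Chloroplast and photosynthesis genes, whose products serve green tissue, had 4 of 7 probes rising and 1 falling, with a median of 1.10. All 4 that rose have names of genes that plastid genomes carry: ycf3 on 2 probes, at 1.33 ± 0.069 (PSOLI01196) and 1.21 ± 0.044 (PSOLI00436), photosystem II protein I (PSOLI01039) at 1.33 ± 0.032 and ycf1 (PSOLI00884) at 1.10 ± 0.068. The 3 with negative means have nuclear genes in plants, and of these violaxanthin de-epoxidase (PSOLI00531) fell, with -0.74, -1.19 and -1.14. S18, the highest ribosomal probe, is likewise a plastid-encoded name. No test of this grouping was made, since it was seen in the values.

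**Figure D3:**
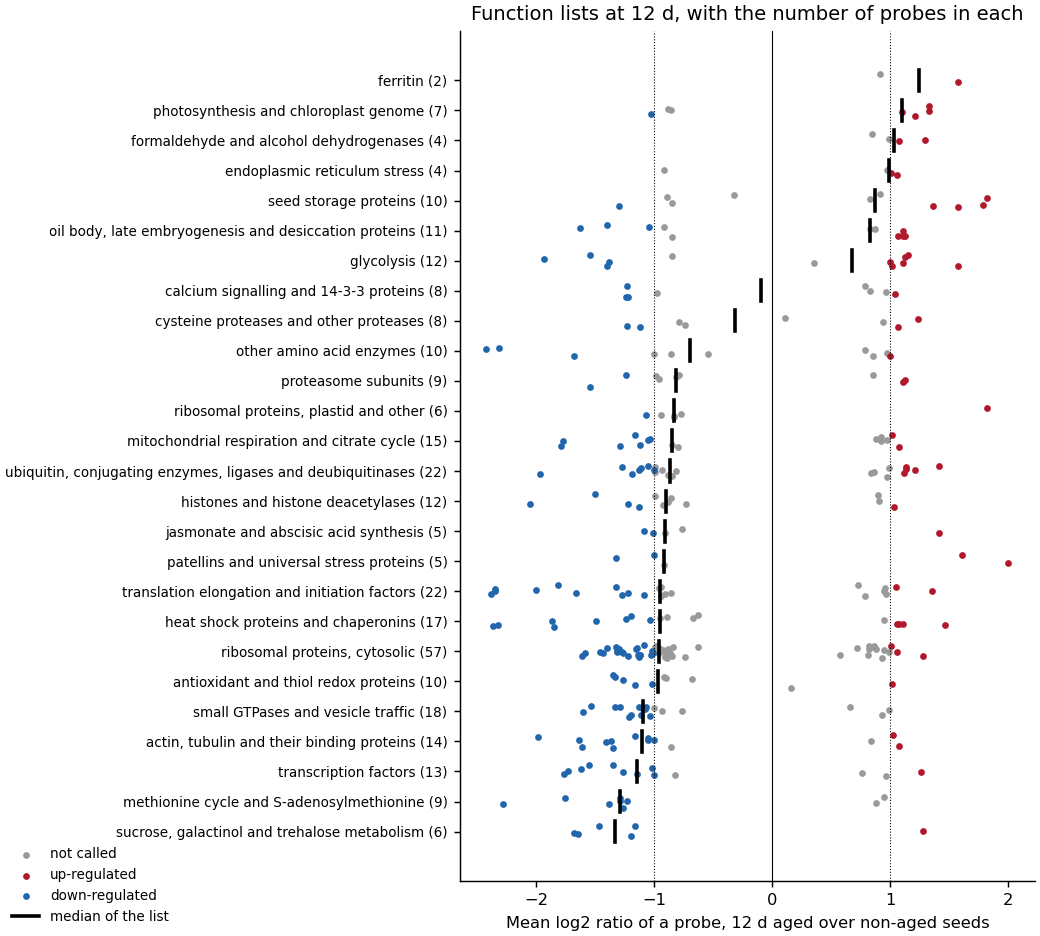
Mean log2 ratio of 12 d aged over non-aged seeds (x axis) for each probe of the 26 function lists (y axis, with the number of probes), coloured by call, with the median of each list as a bar and the fold-change threshold dotted. The lists run from ferritin at the top to sucrose, galactinol and trehalose metabolism at the bottom, and most hold probes on both sides of 0.

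Fewer of the up-regulated probes had a product name. Of the 164 up-regulated probes 78 (47.6%) were predicted hypothetical proteins and 78 had an informative name. Of the 250 down-regulated probes 16 (6.4%) were hypothetical and 207 (82.8%) had an informative name. Over all 180 hypothetical probes the median was 0.96, beside -0.93 for the 491 probes with an informative name. No accession number was available for 64 of the 164 up-regulated and 12 of the 250 down-regulated probes. The other 100 up-regulated probes carry 99 distinct numbers, and the other 238 down-regulated probes carry 227.

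The study's tables left 9 called probes out. Of these 8 were among the 26 probes of the set named PCPS, which had means between -2.06 and 1.67 and a median of -0.13. PCPS08 was the lowest, with -2.11, -2.10 and -1.97, followed by PCPS23 with -1.85, -2.04 and -1.94, and PCPS17 the highest. PCPS13 was up-regulated but uneven, with 1.28, 1.16 and 1.84. What this set holds was not given in the sources used here. The ninth was PSOLI04171, with 1.19, 1.16 and 1.23, a mean of 1.19 (adjusted p = 2.5e-13) and no product name. These 4 were singled out after their values were seen.

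Some listed probes share an accession number. Of 40 such numbers, 19 (47.5%) had probes of opposite sign at 12 d and 21 had probes of the same sign. Over all 717 listed probes 45.7% had positive means, so that mixed signs are common among listed probes in general, and the count is no result about probes that share a number. The widest gap was in elongation factor 1-alpha, where 1 probe (PSOLI01474) was at -2.38 and another (PSOLI03999) had 0.80, 0.77 and 0.62, a gap of 3.11. Patellin-5 was up-regulated on 1 probe and at -0.92 ± 0.067 on the other (PSOLI01330). 60S ribosomal protein L15-2 was the only one of the 40 called in both directions, with -1.36, -1.43 and -1.5 (PSOLI04205) against 0.91, 1.23 and 0.88 (PSOLI01752). Within each of these pairs the 3 arrays of a probe stayed together, so that the gap was many times the spread between replicates. Probe sequences and strands were not analysed here, and whether the paired probes read the same transcript was not tested.

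The calls were also uneven along the probe numbers. In 11 blocks of consecutive PSOLI numbers, of 500 probes each except the last of 220, the share of down-regulated probes was between 0.2% and 17.8%, and that of up-regulated probes between 1.4% and 5.2%. Numbers 501 to 1000 held 89 of the 250 down-regulated probes and 7 of the up-regulated, with a median over all 500 of -0.14, 4001 to 4500 held 49 and 10, and 3001 to 3500 held 1 and 26 with a median of 0.12. The 3 blocks with more than 4.77% down-regulated probes, which also include 4501 to 5000, held 167 of the 250 down-regulated and 31 of the 164 up-regulated probes among 1500. The median of block 501 to 1000 was negative on each of the 3 arrays, at -0.14, -0.14 and -0.16. Of the 57 cytosolic ribosomal probes, 41 had numbers between 4001 and 5000, and of the 13 transcription factor probes 7 were between 501 and 1000. What orders the probe numbers was not given in the sources used here, and the place of the spots on the array was not analysed.

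**Figure D4:**
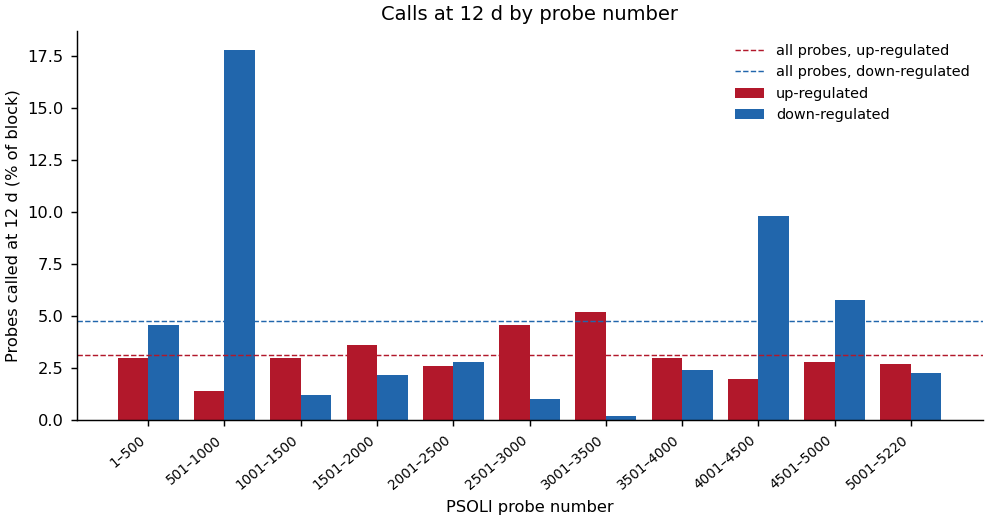
Share of probes called at 12 d (y axis, % of the block) in 11 blocks of consecutive PSOLI probe numbers (x axis), up-regulated in red and down-regulated in blue, with the share over all probes as dashed lines (3.13% and 4.77%). The block 501 to 1000 has 17.8% down-regulated, and 3001 to 3500 has 0.2%.

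The middle time was then set against the others by limma contrasts in the fit of all 9 arrays. Whether the same non-aged RNA served all 3 times was not given in the sources used here. At 12 d, 508 probes (9.68%) had a higher log2 ratio than at 8 d and 464 (8.84%) a lower one, while 636 (12.1%) were higher and 634 (12.1%) lower than at 15 d. These were mostly small steps, with a median difference in size of 0.087 and 0.09 over all probes. With a difference of at least 0.5 besides the test, 23 probes were higher and 37 lower than at 8 d, and 47 higher and 12 lower than at 15 d. Leaving out replicate 1, 2 or 3 at every time left between 235 and 243 probes higher and between 207 and 241 lower than at 8 d, and between 353 and 387 higher and between 349 and 371 lower than at 15 d.

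Most of these differences lay along the change itself. Of the 972 that differed from 8 d, 727 were farther from 0 at 12 d and 245 nearer, and of the 1270 that differed from 15 d, 251 were farther from 0 at 12 d and 1019 nearer. The arrays of 15 d had a wider spread of ratios, with a median absolute deviation between 0.445 and 0.46, beside 0.400 at 12 d and 0.386 at 8 d. Scaled to the same deviation on all arrays, 614 probes differed from 15 d, 278 farther from 0 at 12 d and 336 nearer, so that the share farther from 0 at 12 d was 19.8% without and 45.3% with this scaling. Of the 250 down-regulated probes, 158 were nearer to 0 than at 15 d and 3 farther, and 61 were farther from 0 than at 8 d and 12 nearer. With the scaling these became 42 and 18 against 15 d, and 36 and 20 against 8 d. Of the 164 up-regulated probes, 56 were nearer to 0 than at 15 d and 17 farther, which turned round to 7 nearer and 39 farther with the scaling. Against 8 d, 62 of them were farther from 0 and 4 nearer, and with the scaling 53 and 5.

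Among the 726 probes called at one or more times, 13 (0.248% of all probes) were farther from 0 at 12 d than at both other times, all of them with positive ratios. The dehydration-responsive protein RD22 had the largest of these differences, by the smaller of its 2 contrasts. Its means were 0.42, 1.12 and 0.49 at 8, 12 and 15 d, a difference of 0.71 from 8 d (adjusted p = 0.00021) and 0.63 from 15 d (adjusted p = 0.00037). The ycf3 probe PSOLI00436 had 0.23, 1.21 and 0.74, so that it was near 0 at 8 d and past the threshold at 12 d alone. A call at 12 d itself could admit a probe to the 13, and most of them were called at no other time. This group and the one nearer to 0 below are shaped by that filter, and neither was counted without it.

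The others with the widest differences were an ORF16-LacZ fusion protein (PSOLI00094), a vector-like name, with 0.94, 1.52 and 0.93, and hypothetical proteins PSOLI00037, with 0.68, 1.57 and 1.05, and PSOLI00893, with 0.71, 1.39 and 0.98. Type B provicilin, Bax inhibitor 1 and the embryonic abundant protein VF301 (PSOLI04363, 1.07 ± 0.040) were also in the 13. With 1 median absolute deviation on all arrays the count was 25, which held 12 of the 13, and 6 of the 13 stayed under each of the 7 other settings tried, among them the 5 given with their means. Without replicate 2 at each time 8 probes were in this group, 7 of them from the 13, and without replicate 1 or 3 there were 10.

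A further 30 probes (0.572%) were nearer to 0 at 12 d than at both other times, 22 with negative and 8 with positive ratios. The ClpC homologue (PSOLI00860), an ATPase that unfolds proteins for the plastid protease, had means of -1.92, -1.49 and -2.03 at 8, 12 and 15 d, with differences of 0.43 (adjusted p = 4.4e-05) and 0.54 (adjusted p = 6.1e-06). A 4-coumarate-CoA ligase (PSOLI00938), of phenylpropanoid synthesis, had -1.03, -0.47 and -0.96 and was not called at 12 d. The universal stress protein PSOLI04490 had 2.03, 1.61 and 1.88, violaxanthin de-epoxidase -1.46, -1.02 and -1.36, and a wound-responsive protein (PSOLI00659) -1.39, -1.11 and -1.45. This group held 31 probes with the arrays centred on their medians and 31 with a dye term, but 16 when all arrays were scaled to 1 deviation and 11, 5 and 9 without replicates 1, 2 and 3. ClpC was the only one of the 30 that stayed under each of the 7.

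**Figure D5:**
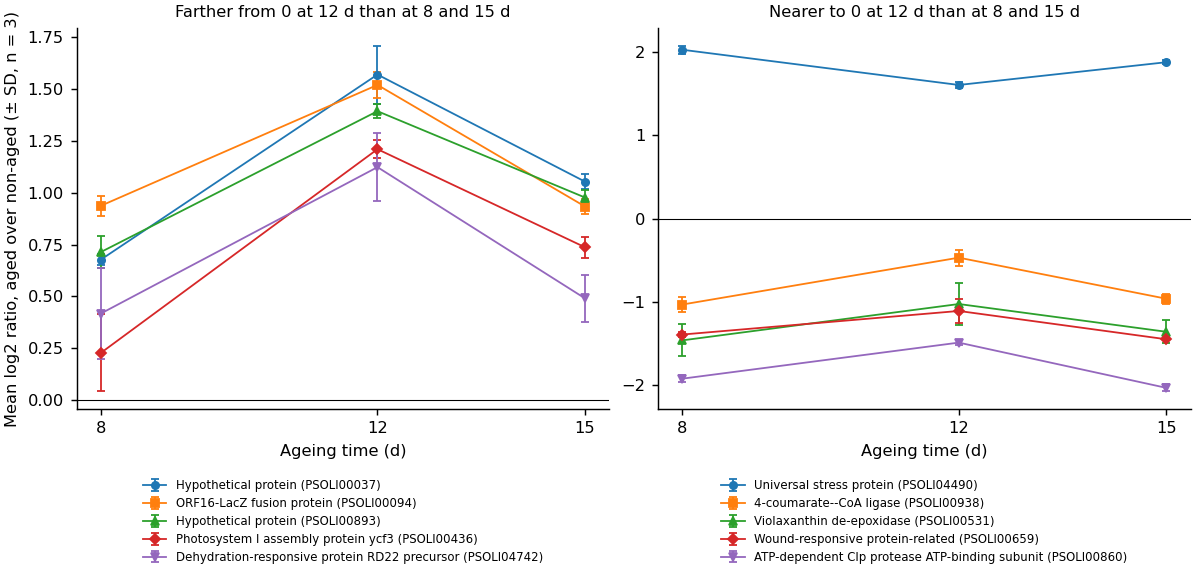
Mean log2 ratio, aged against non-aged seeds (y axis, ± SD over 3 arrays) at 8, 12 and 15 d of ageing (x axis), for the 5 probes with the largest differences among those farther from 0 at 12 d (left) and the 5 among those nearer to 0 (right). On the left RD22 goes through 0.42, 1.12 and 0.49, and on the right ClpC goes through -1.92, -1.49 and -2.03.

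At the fold-change threshold, calls turned on hundredths of a log2 unit. On the up-regulated side the last probe called was hexokinase, with a mean of 1.00, and the first one not called was a hypothetical protein (PSOLI04157) with 1.03, 1.02 and 0.94, which was 0.0033 short. On the down-regulated side these were the beta-7 tubulin (PSOLI00789), with -0.82, -1.02 and -1.16, and an expressed protein (PSOLI00582), with -1.04, -0.86 and -1.09, which was 0.0033 short.

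Other named calls near the threshold turned on single arrays. Hexokinase was at 0.92 without replicate 2, and beta-7 tubulin at -0.99 without replicate 2 and -0.92 without replicate 3. Bax inhibitor 1 was at 0.995 without replicate 1 or 2, and ketol-acid reductoisomerase at 0.985 without replicate 1. Alpha tubulin was at 0.98 without replicate 3, and the lipoxygenase at -0.975 and -0.97 without replicates 1 and 2. Patellin-3 was at -0.965 and -0.99 without replicates 2 and 3, and violaxanthin de-epoxidase at -0.94 and -0.965. Each of these values passed the test and missed the fold-change threshold alone.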

How the data were processed

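Probes were read on 2-colour arrays of 70-mer oligonucleotides for pea (5246 probes, of which 26 are named PCPS), with 3 arrays at each of 8, 12 and 15 d of ageing. The deposited values are log2 ratios of aged over non-aged seeds. Per the methods of the study, the authors corrected the background, applied print-tip loess within arrays, and scaled the arrays by their median absolute value in limma, whose version was not given in the sources used here. In the deposited values the median absolute deviation was 0.386 on each 8 d array, 0.400 on each 12 d array and 0.445 to 0.46 at 15 d. The 3 times were thus not on one scale. The log2 ratios were used as deposited, in steps of 0.01. Their direction is that of the study's tables, whose sign matched for the 717 probes listed there. Spot intensities were not analysed here, so that no filter on dim spots was made.

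All 9 arrays were fitted in limma 3.58.1 (lmFit, eBayes, R 4.3.3) with a mean for each ageing time, with the Benjamini-Hochberg adjustment of p-values over the 5246 probes. Calls required an adjusted p under 0.05 and a mean log2 ratio of 1 or more in either direction. Times were compared by contrasts at an adjusted p under 0.05. The labels call the replicates biological. Their number, 3 per time, limits the precision, with a median standard error of 0.043 for a mean at 12 d. On simulated data, the fit called 100% of 200 probes changed by 1.5 at all times and 0% of 4846 unchanged probes, of 5246. Both shares follow from the simulated sizes beside a threshold of 1, with noise drawn independently for each array. They therefore give no error rate for the real calls. Of 100 simulated probes changed by 0.3 at 12 d alone, 73% differed from both other times.

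Product names came from the study's tables of changed probes, and 315 of the 717 fell into the 26 function lists. None of their 549 accession numbers matched the reference gene table, so that no sequence is given. The members, lists and tests were chosen with earlier results of these data known. Probes were named by rule: the 10 highest and 10 lowest called probes, and the same among those with an informative name, up to 2 per direction in each list, the 5 farther and 5 nearer probes with the largest differences between times, and the probes next to the threshold. Alternatives were the replicate number as a block, other scalings, leaving out each replicate number, a dye term, the 12 d arrays alone and other thresholds. Tables and figures used matplotlib 3.10.9, pandas 2.3.3 and numpy 2.4.6 under Python 3.11.15.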

Additional observations from a re-analysis of the deposited data

Results flagged for a closer look

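The ratios at 12 d differed from those at the other times for a part of the probes, by limma contrasts over all 9 arrays. Higher ratios than at 8 d were found for 508 probes and lower ones for 464, and higher than at 15 d for 636 and lower for 634. Among probes called at one or more times, 12 d included, 13 were farther from 0 at 12 d than at both other times and 30 were nearer. Both counts are shaped by this filter.

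In the first group, the differences from 8 d and 15 d were 0.71 and 0.63 for RD22 (PSOLI04742), 0.58 and 0.59 for the ORF16-LacZ fusion protein (PSOLI00094), and 0.89 and 0.52 for the hypothetical protein PSOLI00037. They were 0.98 and 0.47 for ycf3 (PSOLI00436) and 0.68 and 0.42 for the hypothetical protein PSOLI00893. In the second group they were 0.56 and 0.49 for 4-coumarate-CoA ligase (PSOLI00938), 0.43 and 0.54 for ClpC (PSOLI00860), and 0.44 and 0.33 for violaxanthin de-epoxidase (PSOLI00531). The wound-responsive protein PSOLI00659 had 0.28 and 0.34, and the universal stress protein PSOLI04490 -0.42 and -0.27. An adjusted p under 0.05 in both contrasts was the rule for entering either group. That these 10 probes met it is therefore no further evidence.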

How the results depend on the processing

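The counts of calls moved mostly with the threshold. By the test alone 1948 probes were up-regulated and 1790 down-regulated, past 1.5 in size 23 and 80, and by treat 89 up-regulated. By distinct accession numbers 99 were up-regulated, since 64 up-regulated probes had no number and were dropped. Leaving out 1 replicate number gave 165 to 174 up-regulated and 247 to 255 down-regulated probes. Same-numbered arrays showed little common deviation, with correlations between -0.012 and 0.056. These values cannot tell whether same-numbered arrays shared seeds or non-aged RNA, since noise of single arrays would also keep them near 0. With the replicate block 164 and 250 probes were called, all of them the probes called without it, and the contrasts gave 503, 454, 616 and 628 probes.

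The contrasts were less steady. Leaving out 1 replicate number gave 235 to 243 probes higher and 207 to 241 lower than at 8 d, 353 to 387 higher and 349 to 371 lower than at 15 d, 8 to 10 farther from 0 than at both times and 5 to 11 nearer. Fewer arrays enter these fits. With 1 median absolute deviation on all arrays, 309 were higher and 305 lower than at 15 d, 25 farther from 0 and 16 nearer. With a difference of at least 0.5, 23 were higher and 37 lower than at 8 d, and 47 higher and 12 lower than at 15 d. Of 832 values of the 104 named probes under other settings, 811 stayed on their side of the thresholds and 0 reversed. Without replicate 2 no array with exchanged dyes remains. With a dye term 166 and 249 probes were called.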

Other observations

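Several called probes stood outside the function lists and were chosen here after their values were seen. Down-regulated were ferredoxin-NADP reductase (PSOLI05031), which passes electrons between ferredoxin and NADP, with -2.11, -2.03 and -2.09, a mitochondrial carrier protein (PSOLI00663) with -1.99, -2.10 and -2.03 and the proton-pumping pyrophosphatase of the vacuole (PSOLI00769) with -1.5, -1.76 and -1.85. Pescadillo (PSOLI00736), which serves the assembly of the large ribosomal subunit, was at -1.63 ± 0.085. Up-regulated were a nucleosome assembly protein (PSOLI01556), a histone chaperone, with 1.40, 1.44 and 1.42, and a copper-binding protein (PSOLI02184) with 1.56, 1.45 and 1.45. Proliferating cell nuclear antigen (PSOLI02321), the sliding clamp of DNA replication, was at 1.06 ± 0.068.

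The probes with the widest spread at 12 d had no product name, and 1 array lay apart in each. PSOLI03788 had log2 ratios of 0.02, -1.39 and -0.02, PSOLI03870 of -0.71, 0.51 and 0.47 and PSOLI04090 of 0.37, 1.33 and 0.39 on replicates 1, 2 and 3. None of the 3 was called.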
